A study of Mus musculus with 6 samples.

Results

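The genes described here encode the enzymes of conjugation: glutathione S-transferases (Gst and Mgst), UDP-glucuronosyltransferases (Ugt) and cytosolic sulfotransferases (Sult). They were chosen by symbol from a table of 46095 mouse genes. Of 67 symbols of these families, 2 pseudogene symbols and 26 rows with fewer than 10 counts summed over the 6 libraries were left out (17 of the 26 stood at 0 in every library), so that 39 genes were described. Just inside this limit were Sult2b1 with 14 counts, Gsta1 with 16 and Mgst2 with 21, and just outside it were Sult4a1 with 9, Gstp2 and Sult2a3 with 7 each, and Gstm3 and Sult6b2 with 6 each. The 39 genes were 18 cytosolic and kappa glutathione transferases, 3 microsomal ones, 5 genes of the Ugt1a locus, 7 Ugt2 and Ugt3a genes and 6 sulfotransferases.

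Conjugation makes drugs, toxins, steroids, bile pigments and lipid oxidation products soluble by attaching glutathione, glucuronic acid or sulfate, so that transporters can carry the product into urine or bile. Glutathione transferases take glutathione itself, glucuronosyltransferases take UDP-glucuronate, and sulfotransferases take the sulfate donor PAPS. The Ugt3a enzymes, counted here with the glucuronosyltransferases, take other sugar donors. In the kidney these enzymes are known mainly from the proximal tubule, the segment that takes up and secretes organic acids. Setd2 encodes the methyltransferase that makes H3K36me3. The question was how the conjugation genes differ when Setd2 is deleted along with Vhl in tubular cells, compared with deletion of Vhl alone.

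RNA sequencing was done on primary tubular epithelial cells (PTECs) freshly isolated from the kidneys of 10-week-old mice on a C57 background. The libraries labelled VHL-KO (replicates 1, 2 and 4) came from Ksp-Cre mice with floxed Vhl alleles, while replicates 2, 3 and 4 under the label VHL-KO;SETD2-KO came from Ksp-Cre mice with floxed alleles of both Vhl and Setd2. All 6 mice thus carried Cre and the Vhl deletion, and no library of normal cells was analysed here. Cre was driven by the promoter of Cdh16 (Ksp-cadherin), so that a cell in which this promoter was silent kept its floxed alleles.

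Library totals ran from 11168552 to 17883466 counts, and 3 counts, taken as the floor, corresponded to 0.159 to 0.281 CPM (counts scaled to a common library size with edgeR's TMM factors), which covers counting error only. The library labelled VHL-KO replicate 4 stood apart: Spearman correlations across the tested genes were 0.717 to 0.765 in its 5 pairs and 0.937 to 0.986 in the 10 others, and mitochondrial genes took 11.3% of its counts against 25.9% to 36.4%. In replicate 3 under the label VHL-KO;SETD2-KO, Xist had 11704 counts and the Y-linked genes 1, whereas the other libraries had 0 to 4 and 260 to 3283. Setd2 had 1179, 799 and 132 counts in VHL-KO replicates 1, 2 and 4 and 1499, 1019 and 1429 in VHL-KO;SETD2-KO replicates 2, 3 and 4, so that its total over the gene was not lower under the second label (log2 fold change 0.52 ± 0.64 SE, adjusted p = 0.787, edgeR). Which exons were deleted was not considered, and the groups below are those of the labels.

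Of the 39 genes, 32 had enough counts for a test across all genes with edgeR's quasi-likelihood method. The study states a p under 0.05 and a change of at least 1.5-fold with DESeq2, without saying whether p was adjusted. Here a gene was called at an unadjusted p under 0.05 and a change of at least 1.5-fold. By this rule 7 of the 32 were lower under the label VHL-KO;SETD2-KO (Gstm1, Gstm4, Gstz1, Ugt1a6b, Ugt1a7c, Ugt3a1 and Ugt3a2), where 4.68% of all 14611 tested genes were lower, and 1 was higher (Sult1a1), where 2.65% of all tested genes were higher. For these 8 genes, and for no other tested gene of the families, the values of the groups did not overlap, against 11.0% of all tested genes without overlap and lower and 9.62% without overlap and higher. None of the 32 passed at an adjusted p under 0.05, which 1 gene in the whole table did (0.00684%), and all 8 had an adjusted p of 0.625. The log2 fold change (VHL-KO;SETD2-KO over VHL-KO) was below 0 in 25 of the 32 and above 0 in 7. Its median was -0.87, and over all tested genes it was 0.0093. In such bulk samples fewer cells of a type and less RNA per cell cannot be told apart.

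**Figure D1:**
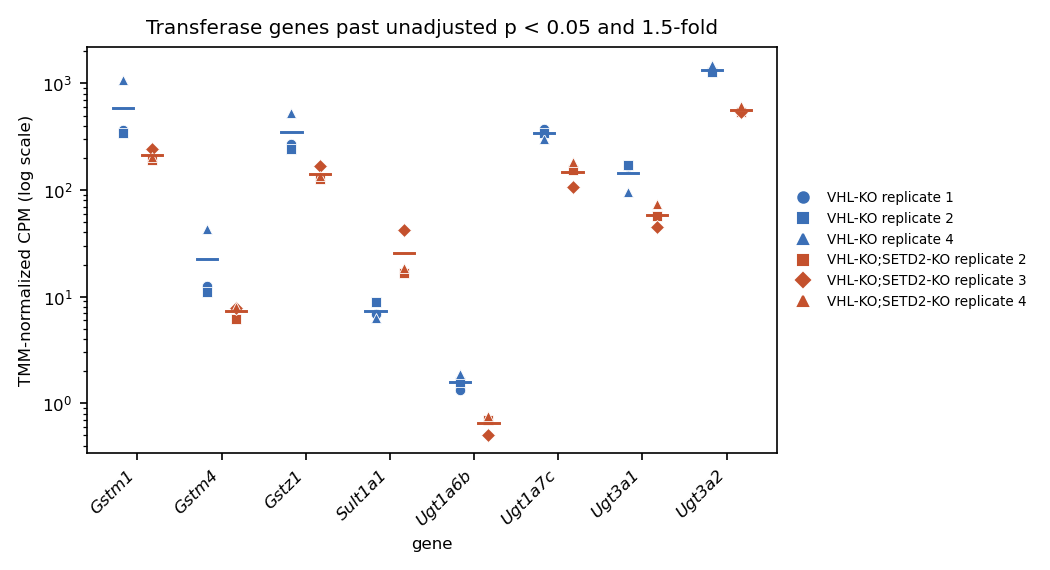
TMM-normalized CPM (log axis) of the 8 called genes in each of the 6 libraries, with blue symbols for the label VHL-KO, orange symbols for VHL-KO;SETD2-KO, and a line at each group's mean (n = 3). In each gene all symbols of one colour lie on one side of the other colour, with Sult1a1 the one gene in which orange lies above blue.

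The plot of the 8 called genes shows how unlike their levels were. Mean CPM over the 6 libraries ran from 1.12 for Ugt1a6b to 957 for Ugt3a2. Per kilobase of exon, the scale on which different genes can be compared, the highest levels of the families were 308 CPM for Ugt3a2, 290 for Ugt2b38, 273 for Gstm1, 200.1 for Sult1d1 and 180.3 for Gsta2.

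Glutathione transferases were the class with the most members, and 15 of the 16 tested cytosolic and kappa genes had a log2 fold change below 0 (median of the 18 tested transferases with the microsomal ones, -0.87). Of the class, 3 genes were called lower and none higher. Gstm1, a mu-class enzyme that conjugates electrophiles with glutathione (chr3:108012255-108017973, minus strand, GRCm38), stood at 366, 343 and 1071 CPM in VHL-KO replicates 1, 2 and 4 and at 190, 242 and 204 CPM in VHL-KO;SETD2-KO replicates 2, 3 and 4. The lowest VHL-KO library was above the highest of the other group, and VHL-KO replicate 4 was 3.02 times the mean of the other two of its group. The mean was 594 ± 414 CPM against 212 ± 26.9 (SD, n = 3 each), and the log2 fold change was -1.49 ± 0.56 (SE, adjusted p = 0.625, edgeR).

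Gstm4, its neighbour of the same class (chr3:108040408-108044894, minus strand), had 12.6, 11.1 and 43.5 CPM in VHL-KO replicates 1, 2 and 4. Under the second label it had 6.22, 7.83 and 7.97 CPM in replicates 2, 3 and 4. VHL-KO replicate 4 was again far above the others. Its log2 fold change was -1.61 ± 0.59 (SE, adjusted p = 0.625, edgeR).

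Gstz1, the zeta-class maleylacetoacetate isomerase of tyrosine breakdown (chr12:87147165-87164723, plus strand), had 271, 245 and 531 CPM in VHL-KO replicates 1, 2 and 4. In VHL-KO;SETD2-KO replicates 2, 3 and 4 it had 126, 167 and 134 CPM. The groups were apart without the help of the highest library, and the log2 fold change was -1.29 ± 0.46 (SE, adjusted p = 0.625, edgeR). Exons of Gstz1 overlap exons of Pomt2 and Gm6566 on the opposite strand, and since the strand setting of the counting is not given in the sources used here, reads of these genes may be mixed.

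Gsta2, an alpha-class enzyme that reduces lipid peroxides and the second of the class by level per kilobase, did not pass the test. It had 179.6, 171 and 393 CPM in VHL-KO replicates 1, 2 and 4 and 133, 254 and 143 CPM in VHL-KO;SETD2-KO replicates 2, 3 and 4, so that the groups overlapped. The log2 fold change was -0.49 ± 0.51 (SE, adjusted p = 0.759, edgeR). Of the 75-base windows of its transcripts, 36.6% occur also in other genes such as Gsta1, so its count is uncertain in that part. For Gstm1 this share was 11.7%, and for Gstm4 and Gstz1 it was 0%.

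Among the microsomal enzymes, Mgst3, a membrane enzyme that acts on lipid hydroperoxides and leukotriene precursors, had 42.1, 40.5 and 222 CPM in VHL-KO replicates 1, 2 and 4, against 38.3, 62.7 and 38.7 CPM in the other group. Mgst1, the most widely expressed microsomal enzyme, had 32.4, 27.5 and 35.6 CPM against 24.8, 79.5 and 29.5 CPM. In each gene 1 library was far above the other 5, VHL-KO replicate 4 for Mgst3 and VHL-KO;SETD2-KO replicate 3 for Mgst1. Neither passed the test, with log2 fold changes of -1.12 ± 0.71 and 0.49 ± 0.52 (SE, adjusted p = 0.636 and 0.760, edgeR).

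VHL-KO replicate 4 was the highest of the 6 libraries in 15 of the 18 tested glutathione transferases, and in 40.0% of all tested genes. Its level was 2.06 times the mean of VHL-KO replicates 1 and 2 for Gstz1 and 6.92 times for Gstm6, the largest such ratio of the class. Without that library the median log2 fold change of the class was -0.027 in place of -0.87. Gstm1, Gstm4 and Gstz1 were still called lower, at -0.74, -0.69 and -0.86, and Gsta4, an alpha-class enzyme for the lipid aldehyde 4-hydroxynonenal, and Gstm2 were called higher, at 1.63 and 1.21.

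The 6 tested mu-class genes lie in 1 cluster on chromosome 3, from Gstm5 (chr3:107895821-107898686) to Gstm4, and did not move alike. With all libraries each of the 6 had a log2 fold change below 0, from -1.61 for Gstm4 to -0.30 for Gstm2. With VHL-KO replicate 4 left out they ran from -0.74 for Gstm1 to 1.21 for Gstm2. Gstm2 had 34.6, 17.7 and 171.5 CPM in VHL-KO replicates 1, 2 and 4, and 55.6, 77.3 and 49.2 CPM in VHL-KO;SETD2-KO replicates 2, 3 and 4. All 3 libraries of the second label thus lay between VHL-KO replicate 4 and the other two of its group. The other mu-class genes were Gstm5, Gstm6 and Gstm7, at -0.33, 0.68 and 0.067 without that library.

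**Figure D2:**
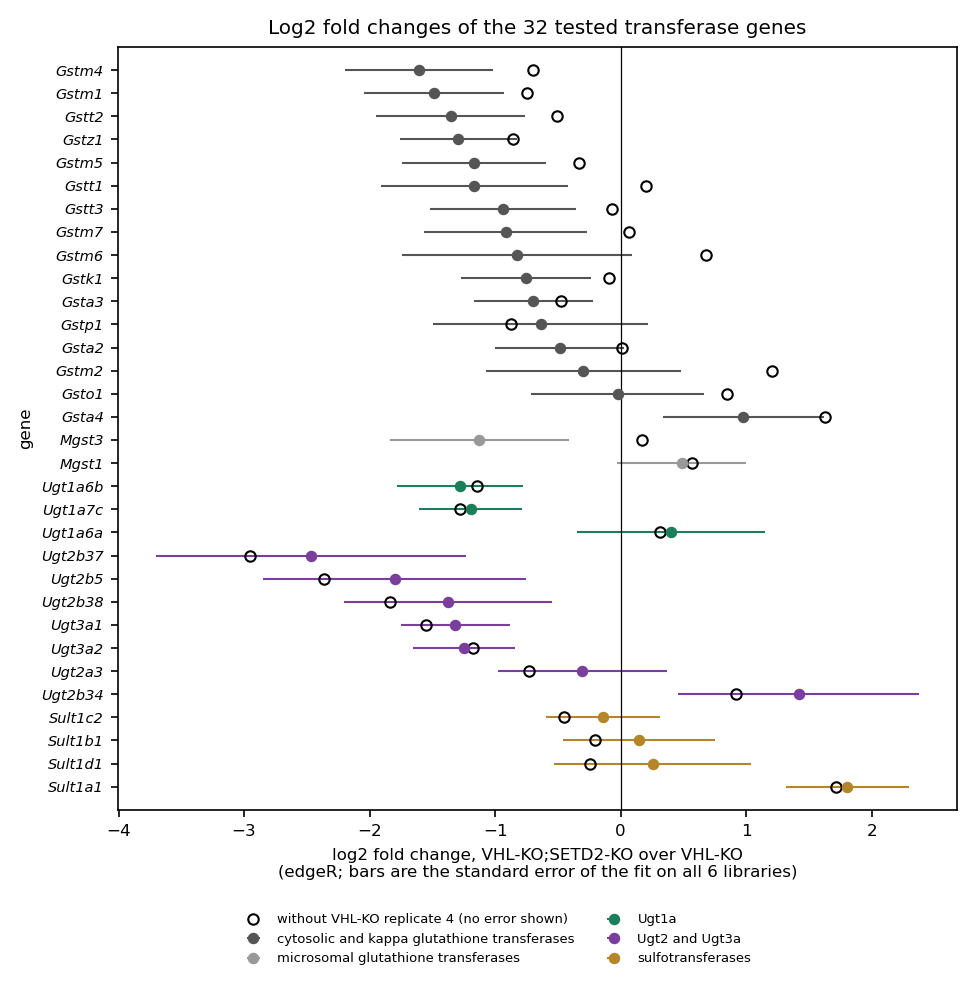
Log2 fold changes (VHL-KO;SETD2-KO over VHL-KO) of the 32 tested genes by family, from edgeR on all 6 libraries (filled points, bars of 1 standard error) and without VHL-KO replicate 4 (open circles, no error shown). Most open circles of the glutathione transferases lie to the right of their filled points, while those of Ugt1a7c, Ugt3a1 and Ugt3a2 lie within 0.25 of them. The open circles of the Ugt2 genes lie to the left of their filled points.

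Glucuronosyltransferases, with Ugt3a1 and Ugt3a2 counted among them, gave the other 4 genes called lower, of 10 tested, and none was called higher. Their median log2 fold change was -1.26 with all libraries and -1.23 without VHL-KO replicate 4. The open and filled points of the plot of fold changes show this difference from the glutathione transferases, which was not tested. Near-equal medians do not mean that single genes stayed in place. Without VHL-KO replicate 4 all tested Ugt2 genes moved down. Ugt2b37 went from -2.47 to -2.95, Ugt2b38 from -1.38 to -1.84 and Ugt2b5 from -1.80 to -2.37. Ugt2b34 went from 1.42 to 0.92 and Ugt2a3 from -0.31 to -0.73. Ugt3a2, which with Ugt3a1 belongs to a family that uses sugar donors other than UDP-glucuronate (chr15:9335550-9370955, plus strand), was the most abundant of all 39 genes. It had 1278, 1287 and 1474 CPM in VHL-KO replicates 1, 2 and 4 and 544, 540 and 616 CPM in VHL-KO;SETD2-KO replicates 2, 3 and 4. Each library of the first label was more than 2 times each library of the second. The mean was 1347 ± 111 against 567 ± 42.9 CPM (SD, n = 3 each), a log2 fold change of -1.25 ± 0.41 (SE, adjusted p = 0.625, edgeR).

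Ugt3a1, its neighbour (chr15:9276888-9315032, plus strand), had 169, 173 and 94.8 CPM in VHL-KO replicates 1, 2 and 4. In VHL-KO;SETD2-KO replicates 2, 3 and 4 it had 57.1, 44.7 and 73.6 CPM, all below the lowest of the first label. Its log2 fold change was -1.32 ± 0.43 (SE, adjusted p = 0.625, edgeR). Few windows of 75 bases are shared within this pair (1.25% of those of Ugt3a1 and 1.12% of those of Ugt3a2), so their counts can be told apart. DESeq2 without VHL-KO replicate 4 gave an adjusted p of 1.25e-06 for Ugt3a1 and 7.44e-12 for Ugt3a2. These were the lowest of the 16 alternative settings, and the highest was 0.977 for both, without VHL-KO;SETD2-KO replicate 4.

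The Ugt1a genes lie at 1 locus on chromosome 1, where each has its own first exon and all share the remaining exons. Of the 75-base windows of these genes, between 51.2% (Ugt1a6a) and 74.8% (Ugt1a6b) occur in other genes of the locus, and how the counting shared out such reads is not given in the sources used here. Ugt1a7c (chr1:88095062-88220002, plus strand) had 376, 344 and 299 CPM in VHL-KO replicates 1, 2 and 4 and 155.6, 108 and 182 CPM in VHL-KO;SETD2-KO replicates 2, 3 and 4. The groups were well apart, and the log2 fold change was -1.20 ± 0.41 (SE, adjusted p = 0.625, edgeR). Ugt1a6b (chr1:88103252-88219003), of a subfamily known for planar phenols, had only 22, 17 and 20 counts against 13, 9 and 12. Its log2 fold change was -1.28 ± 0.50 (SE, adjusted p = 0.625, edgeR). The calls of Ugt1a6b and of Ugt1a7c were each lost in 5 of the 6 fits that left out 1 library.

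The remaining genes of the locus were set by 1 library. Ugt1a2 had 5, 2 and 8 counts in VHL-KO replicates 1, 2 and 4 and 11, 7014 and 5 in VHL-KO;SETD2-KO replicates 2, 3 and 4. Ugt1a1, the enzyme that conjugates bilirubin, had 10, 7 and 6 counts against 4, 123 and 6. Ugt1a6a had 19, 18 and 12 counts against 16, 66 and 10. All 3 were thus highest in VHL-KO;SETD2-KO replicate 3, the library with Xist counts, in which Ugt1a7c and Ugt1a6b were at their lowest. Ugt1a1 and Ugt1a2 did not pass the filter for the test, and Ugt1a6a had a log2 fold change of 0.40 ± 0.75 (SE, adjusted p = 0.850, edgeR). Whether sex or another property of that library takes part in this was not tested.

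**Figure D3:**
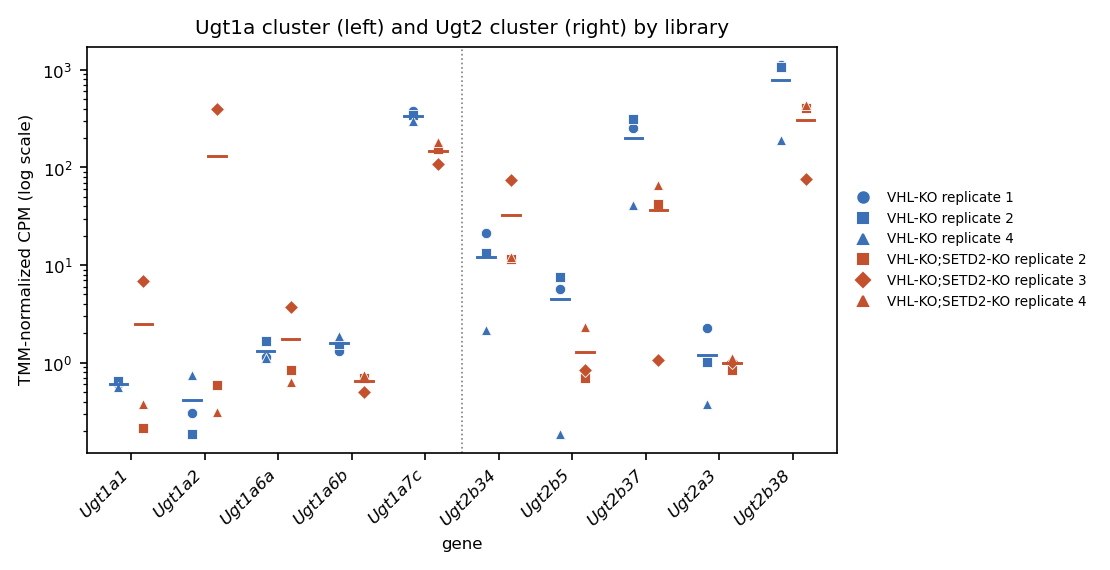
TMM-normalized CPM (log axis) of 10 glucuronosyltransferase genes in each library, with the Ugt1a locus left of the dotted line, the Ugt2 genes right of it, and a line at each group's mean (n = 3). The orange diamond, VHL-KO;SETD2-KO replicate 3, is at 395 CPM for Ugt1a2, where the other libraries are under 1, and at 1.07 CPM for Ugt2b37.

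The Ugt2 genes, whose products conjugate steroids and bile acids, lie side by side on the minus strand of chromosome 5. The bases before the start sites of Ugt2b5, Ugt2b37 and Ugt2b38 are shown because each of these genes was highest in VHL-KO replicates 1 and 2, whereas their neighbour Ugt2b34 was highest in VHL-KO;SETD2-KO replicate 3. They are from RefSeq for GRCm38.p6, 120 bases upstream of the RefSeq start, on the minus strand: Ugt2b5 chr5:87140341-87140460, Ugt2b37 chr5:87254789-87254908, Ugt2b38 chr5:87424204-87424323 and Ugt2b34 chr5:86906938-86907057. The GENCODE model of Ugt2b37 begins slightly further upstream than the RefSeq one. Capitals mark a stretch of 62 bases that the first 3 genes share letter for letter.

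Ugt2b5: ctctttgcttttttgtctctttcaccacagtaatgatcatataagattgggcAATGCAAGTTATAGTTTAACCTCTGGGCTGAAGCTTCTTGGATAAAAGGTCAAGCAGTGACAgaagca
Ugt2b37: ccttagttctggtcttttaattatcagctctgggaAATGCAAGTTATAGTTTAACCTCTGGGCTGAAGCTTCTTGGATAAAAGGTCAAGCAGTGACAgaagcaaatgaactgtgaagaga
Ugt2b38: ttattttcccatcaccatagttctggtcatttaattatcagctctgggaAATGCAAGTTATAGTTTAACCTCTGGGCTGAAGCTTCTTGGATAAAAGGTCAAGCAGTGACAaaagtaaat
Ugt2b34: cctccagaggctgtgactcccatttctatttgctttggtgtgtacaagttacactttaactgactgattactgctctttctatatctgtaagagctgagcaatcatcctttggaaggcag

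The stretch ends 6, 23 and 9 bases before the start of Ugt2b5, Ugt2b37 and Ugt2b38. It was picked as the longest run that the windows of these 3 genes share, so its presence in all 3 was fixed by that choice. Among 32851 RefSeq promoter windows, searched over 250 bases on both strands, it occurs in no other. Whether it bears on the levels of these genes was not tested. Ugt2b38 (chr5:87409942-87424203) had 1109, 1077 and 193 CPM in VHL-KO replicates 1, 2 and 4, against 407, 77.0 and 432 CPM in VHL-KO;SETD2-KO replicates 2, 3 and 4. Ugt2b37 (chr5:87240493-87254804) had 251, 315 and 41.6 CPM against 42.7, 1.07 and 66.2 CPM. For Ugt2b5 (chr5:87124960-87140318), the least abundant of the 3, the values were 5.64, 7.59 and 0.187 CPM against 0.691, 0.845 and 2.32 CPM.

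In these 3 genes VHL-KO replicates 1 and 2 were above all 4 other libraries. The lowest library was VHL-KO;SETD2-KO replicate 3 for Ugt2b37 and Ugt2b38 and VHL-KO replicate 4 for Ugt2b5. With all libraries none was called, at log2 fold changes of -1.38 ± 0.83, -2.47 ± 1.23 and -1.80 ± 1.05 (SE) for Ugt2b38, Ugt2b37 and Ugt2b5 and adjusted p of 0.627, 0.625 and 0.626 (edgeR). Without VHL-KO replicate 4, Ugt2b38 and Ugt2b5 were called lower at -1.84 and -2.37, and Ugt2b37 was at -2.95 and was not called. Part of their sequence is common: 28.0% of the 75-base windows of Ugt2b38, 30.4% of those of Ugt2b5 and 6.37% of those of Ugt2b37 occur in another gene, so that the low count of Ugt2b5 in particular is uncertain.

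Ugt2b34 (chr5:86889767-86906937) had 21.2, 13.3 and 2.15 CPM in VHL-KO replicates 1, 2 and 4. Under the second label it had 11.5, 74.5 and 12.2 CPM in replicates 2, 3 and 4. Replicate 3, which held the least Ugt2b37 and Ugt2b38, thus held the most Ugt2b34. Its log2 fold change was 1.42 ± 0.96 (SE, adjusted p = 0.650, edgeR) and turned to -0.044 without that library. Ugt2a3, which lies between Ugt2b37 and Ugt2b38, was at 0.374 to 2.24 CPM and had a log2 fold change of -0.31 ± 0.67 (SE, adjusted p = 0.875, edgeR).

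Of the 4 tested sulfotransferases, 3 had a log2 fold change above 0 (median 0.20), and VHL-KO replicate 4 was the lowest library in all 4, as it was in 41.7% of all tested genes. The median was -0.22 without that library, -0.16 without VHL-KO;SETD2-KO replicate 3 and -0.50 without both. The difference between the classes was not tested. Sult1a1, which sulfates phenols (chr7:126672865-126676432, minus strand), had 6.91, 8.88 and 6.36 CPM in VHL-KO replicates 1, 2 and 4 and 16.6, 42.6 and 18.4 CPM in VHL-KO;SETD2-KO replicates 2, 3 and 4. The lowest library of the second label was above the highest of the first. The mean was 7.38 ± 1.33 against 25.9 ± 14.5 CPM (SD, n = 3 each), a log2 fold change of 1.81 ± 0.49 (SE, adjusted p = 0.625, edgeR). The call held when any 1 of the 6 libraries was left out, and the log2 fold change ran from 1.25 to 2.05. Exons of Sult1a1 overlap those of Sgf29 on the opposite strand.

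Sult1d1, an amine and phenol sulfotransferase (chr5:87554645-87569027, minus strand), was the most abundant of the class. It had 664, 604 and 76.6 CPM in VHL-KO replicates 1, 2 and 4 and 312, 884 and 411 CPM in VHL-KO;SETD2-KO replicates 2, 3 and 4. VHL-KO replicate 4 was the lowest and VHL-KO;SETD2-KO replicate 3 the highest, and the log2 fold change was 0.26 ± 0.78 (SE, adjusted p = 0.913, edgeR). Sult1c2 had 63.9, 53.4 and 24.5 CPM against 35.3, 47.9 and 45.3 CPM, with a log2 fold change of -0.14 ± 0.45 (SE, adjusted p = 0.915, edgeR). Sult1b1, the other tested member, was between 1.12 and 3.72 CPM in every library, and Sult2b1 and Sult5a1 had at most 25 counts in any.

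**Figure D4:**
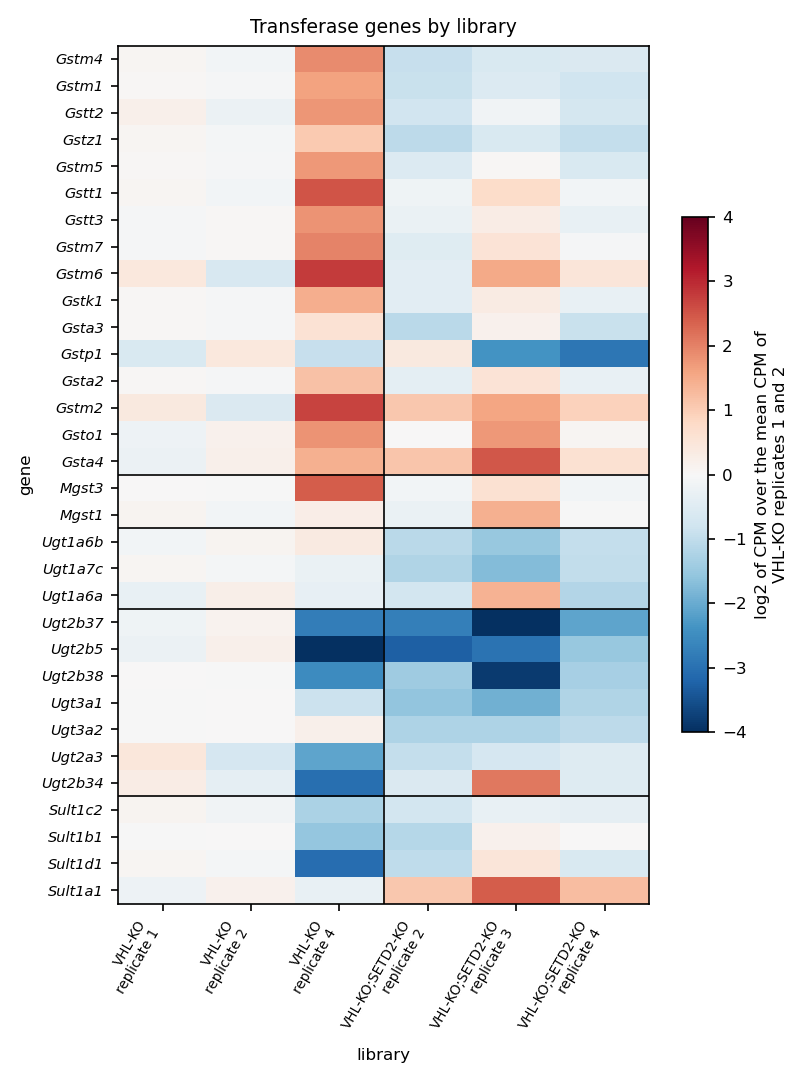
Log2 ratio of CPM in each library (columns) to the mean CPM of VHL-KO replicates 1 and 2, for the 32 tested genes (rows, grouped by family), with red above and blue below that mean and colours that stop at 4 in both directions. VHL-KO replicate 4 is red for most glutathione transferases and blue for the Ugt2 genes and most sulfotransferases, while Ugt1a7c, Ugt3a1 and Sult1a1 have one colour in all 3 libraries of the second label.

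The map of ratios by library shows both libraries that stand apart. The calls were also taken from fits without VHL-KO replicate 4 and VHL-KO;SETD2-KO replicate 3. Without VHL-KO replicate 4, 9 of the 32 genes were called lower, where 7.08% of all tested genes were, and 3 higher, where 8.4% were (edgeR, unadjusted). All 7 genes called lower with all libraries were among the 9, joined by Ugt2b38 and Ugt2b5, and Sult1a1 was joined by Gsta4 and Gstm2. DESeq2 on the same 5 libraries, at an adjusted p under 0.05, called 7 lower (Gstm1, Gstz1, Ugt1a7c, Ugt2b38, Ugt2b5, Ugt3a1 and Ugt3a2), where 4.75% of all tested genes were, and the same 3 higher, where 3.72% were. With both libraries left out, edgeR called 12 lower, where 10.3% of all genes were, and 3 higher, where 13.3% were, and 6 of the 7 genes called lower with all libraries were among the 12.

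Other fits gave fewer calls. Without VHL-KO;SETD2-KO replicate 3 alone, 3 genes were called lower (Gsta3, Gstz1 and Ugt3a2), and without VHL-KO;SETD2-KO replicate 2 or 4 it was 1 each. Of all 14611 tested genes, 315 were called lower without replicate 3 of that label, 196 without replicate 2 and 254 without replicate 4. With all libraries it was 684 of all tested genes, so calls fell over the whole table as well. Gstz1 and Ugt3a2 were each called in 4 of the 6 fits that left out 1 library, Gstm1 and Gstm4 in 3, Ugt3a1 in 2 and Ugt1a7c and Ugt1a6b in 1.

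The genes around these enzymes were read from a list of 36, of which 35 were tested. Of these, 9 were called lower (25.7%) and none higher (0%), against 4.68% and 2.65% of all tested genes, at an adjusted p of 0.625 each (edgeR). The log2 fold change was below 0 in 29 of the 35 (median -0.48) and in 49.5% of all tested genes. Glutathione synthesis and turnover held 5 of the 9, out of 10 genes, all 10 with a log2 fold change below 0. Ggt1, the brush-border enzyme that opens glutathione and its conjugates outside the cell, had 920, 838 and 4161 CPM in VHL-KO replicates 1, 2 and 4, against 373, 415 and 442 CPM in the other group. Gss, which completes glutathione synthesis, had 201, 179 and 723 CPM against 92.7, 80.7 and 97.3 CPM. The others were Oplah, which opens oxoproline in the same cycle, and the peptidases Dpep1 and Anpep. Oplah had 113, 149 and 527 CPM against 54.6, 124 and 65.6 CPM. Dpep1 had 85.7, 54.5 and 515 CPM against 46.6, 74.3 and 51.8 CPM. In both the groups overlapped and VHL-KO replicate 4 was far above the other libraries. In Anpep, at 145, 169 and 298 CPM against 63.4, 77.3 and 74.3 CPM, the groups did not overlap. Gclc and Gclm, the subunits of the enzyme that limits glutathione synthesis, were not called, at log2 fold changes of -0.16 ± 0.53 and -0.79 ± 0.40 (SE, adjusted p = 0.917 and 0.625, edgeR).

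Of 4 genes for UDP-glucuronate supply and glucuronide cleavage, 1 was called, Gusb, the lysosomal glucuronidase, at -1.30 ± 0.56 (SE, adjusted p = 0.625, edgeR). Ugdh, which makes UDP-glucuronate, was at -0.48 ± 0.54 (SE). None of 6 genes for PAPS supply and use was called. Papss2, which makes PAPS, was at -0.14 ± 0.65 (SE, adjusted p = 0.941, edgeR). Among the regulators, Hnf4a, a factor of proximal tubule identity, was called lower, at -1.04 ± 0.43 (SE, adjusted p = 0.625, edgeR). Nfe2l2 (NRF2), the factor that drives many glutathione transferase genes under oxidative stress, was at 0.59 ± 0.57 (SE, adjusted p = 0.741, edgeR). Of 7 NRF2 targets outside the transferases, Nqo1 alone was called lower, with 59.0, 54.7 and 89.6 CPM against 25.9, 26.6 and 25.0 CPM.

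Marker genes of kidney cell types also differed in level between libraries, and their calls stand against the same 4.68% lower and 2.65% higher of all tested genes. Of 10 proximal tubule markers, 3 were called lower under the second label (Slc34a1, Slc22a6 and Slc13a3) and none stood at 0. The log2 fold change was below 0 in 8 of the 10. It was above 0 in Slc5a12 (0.50 ± 0.75 SE) and Gatm (0.38 ± 0.65 SE), neither of them called. The summed level of the 10 was 16198 to 27979 CPM in the first group and 7378 to 10439 CPM in the second. Within the list, VHL-KO replicate 4 was the highest library for Slc34a1 (14206 CPM) and the lowest for Lrp2 (940 CPM). The proximal straight tubule (S3) markers Slc7a13, Cyp7b1 and Slc22a19 summed to 903, 1206 and 240.5 CPM in VHL-KO replicates 1, 2 and 4 and to 304, 34.0 and 315 CPM in VHL-KO;SETD2-KO replicates 2, 3 and 4, and Cyp7b1 was called lower. This sum was mostly Slc7a13, which had 876, 1156 and 214 CPM against 290.2, 2.42 and 301 CPM. Slc22a19 did not follow it, with 29.7 CPM in VHL-KO;SETD2-KO replicate 3 and 15.5 CPM in VHL-KO replicate 1. Podocyte markers summed to 1437 to 2089 CPM and 1971 to 4836 CPM, and Nphs1 and Wt1 were among those called higher. Endothelial markers summed to 974 to 1509 CPM and 1169 to 3714 CPM, with none of 5 called.

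The summed markers of the distal convoluted tubule came to 531, 665 and 1764 CPM in VHL-KO replicates 1, 2 and 4 and to 871, 2189 and 971 CPM in VHL-KO;SETD2-KO replicates 2, 3 and 4, with 1 of 3 called higher (Calb1). Single distal markers went other ways, and VHL-KO replicate 4 was the lowest library for Slc12a1 (79.2 CPM), Kcnj1 (19.8 CPM), Calb1 (42.5 CPM) and Atp6v1g3 (2.71 CPM). Of 4 thick ascending limb markers 1 was called higher (Kcnj1), of 4 intercalated cell markers 2 (Atp6v1g3 and Slc26a4), of 4 collecting duct principal cell markers none, of 5 fibroblast markers none, of 6 leukocyte markers 1 lower (C1qa), and of 3 tested tubular injury markers 1 lower (Havcr1). The classes themselves summed to 1304 to 3929 CPM and 921 to 1506 CPM for glutathione transferases, to 2109 to 3222 CPM and 1222 to 1387 CPM for glucuronosyltransferases, and to 110.3 to 738 CPM and 366 to 980 CPM for sulfotransferases. The groups did not overlap in the sums of glucuronosyltransferases and of proximal tubule markers. The glucuronosyltransferase sum includes Ugt3a1 and Ugt3a2, and in VHL-KO replicate 4 Ugt3a2 gave 1474 of the 2109 CPM. The lack of overlap in this sum rests on Ugt3a1 and Ugt3a2. Without them, the sum of VHL-KO replicate 4 lies below that of every library of the second label. In Ugt2b38, the next of that class by mean CPM, the groups overlapped, so the sum does not stand for each gene of the class. What part the cell types behind these markers had in the values of the conjugation genes was not tested.

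**Figure D5:**
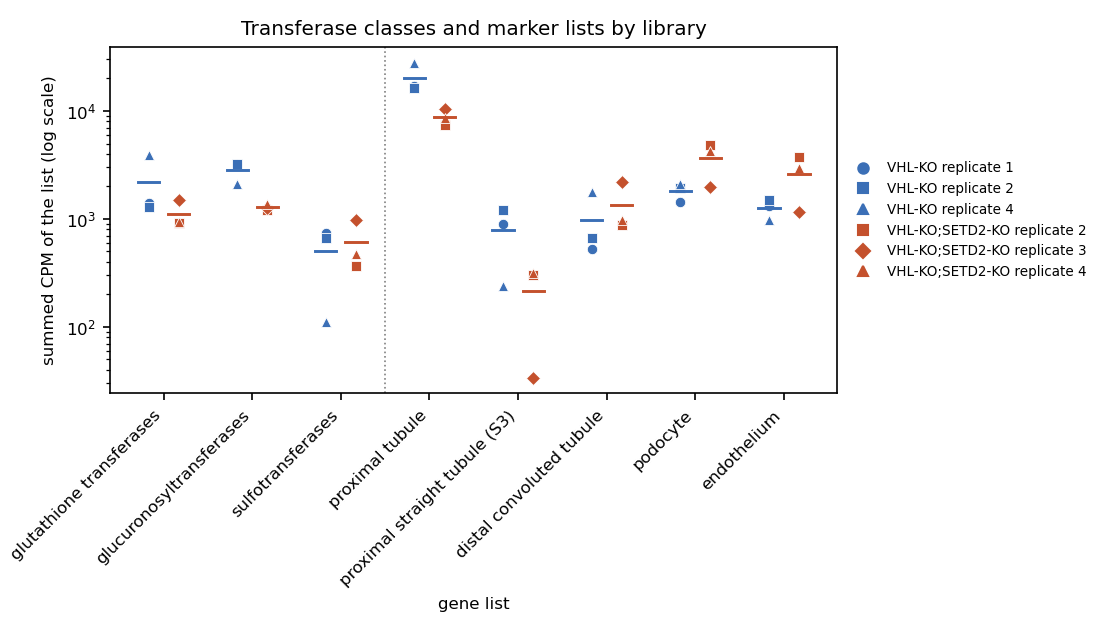
Summed CPM (log axis) of the 3 transferase classes, left of the dotted line, and of 5 marker lists, right of it, in each library, with a line at each group's mean (n = 3). The sums of glucuronosyltransferases (with Ugt3a1 and Ugt3a2) and of proximal tubule markers are lower in all 3 orange libraries than in any blue one. Podocyte and endothelial sums are highest in VHL-KO;SETD2-KO replicates 2 and 4.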

How the data were processed

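PTECs from 6 mice were sequenced by the authors with directional, paired-end libraries on an Illumina platform, and raw counts per gene symbol were deposited. The submitters' processing notes name HISAT2 2.0.4 and GRCm38, while the counting program, its annotation and its strand setting are not given in the sources used here. The mice of a group are separate animals.

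From the deposited counts, edgeR 4.0.16 in R 4.3.3 gave TMM factors (0.831 to 1.16) and CPM, and its quasi-likelihood test was fitted with the label as the only factor to 14611 of 46095 genes, those kept by filterByExpr. Calls needed p under 0.05 and 1.5-fold, and adjusted p-values are Benjamini-Hochberg values over all tested genes. The alternatives used DESeq2 1.42.0 and limma 3.58.1. The fits were tested on simulated data.

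Values in every library are given for the genes called and for the 2 most abundant of each family, and Gsta2, Gstm2, Ugt1a1, Ugt1a6a, Ugt2b5, Ugt2b34, Ugt2b37 and single genes of the lists were added after their values were seen. The genes and lists were chosen with earlier results of these data known. Positions of all 39 genes are from GENCODE vM21 (GRCm38), matched by symbol. Upstream sequences are from RefSeq for GRCm38.p6. Some results of the lists are not reported here. The number of sample columns left unused was 0.

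Replicate numbers 2 and 4 occur under both labels, and nothing says that mice were paired.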

Additional observations from a re-analysis of the deposited data

Results flagged for a closer look

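Counts outside the tested genes stood above the level of the VHL-KO libraries in 2 genes of the Ugt1a locus. In replicate 3 under the label VHL-KO;SETD2-KO, Ugt1a2 had 7014 counts, where the highest VHL-KO library had 8. Ugt1a1 had 123 counts in the same library, where the highest VHL-KO library had 10. With no filter on low counts, edgeR called Ugt1a2 higher (log2 fold change 8.37, adjusted p = 0.678), although replicates 2 and 4 of the same label had 11 and 5 counts.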

How the results depend on the processing

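With 7 genes called lower and 1 higher as the starting point, limma-voom with sample quality weights called 13 lower and 3 higher. Of all 14611 tested genes it called 1527 lower and 2124 higher. No filter on low counts gave 2 higher, with Ugt1a2 added, where 519 of 18660 genes were higher. DESeq2 without VHL-KO replicate 4 called 3 higher, where 1416 of all 14611 tested genes were higher (unadjusted). The 4 libraries left without VHL-KO replicate 4 and VHL-KO;SETD2-KO replicate 3, a choice made after seeing the data, gave 12 lower and 3 higher. Of all tested genes, 10.3% were lower and 13.3% higher in that fit. An adjusted p under 0.05 gave 0 in both directions (edgeR on all 6 libraries, against 8 at an unadjusted p under 0.05). At that limit and 1.5-fold, quality weights called 11 lower and 2 higher, and the 4 libraries 12 lower and 3 higher. The share of all tested genes at that limit was not counted for these 2 settings. The fit with the replicate block gave 0 lower and 0 higher, where 54 and 93 of all tested genes were called. Leaving out 1 library at a time gave 1 to 9 lower and 1 to 3 higher. Of all 14611 tested genes, these fits called 196 to 1099 lower and 166 to 1228 higher. The median log2 fold change of the 32 tested members was -1.13 to -0.29 in them, the latter without VHL-KO replicate 4. DESeq2 without that library gave a median of -0.29 as well.

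Of the genes around the transferases, 9 were called lower and 0 higher. Quality weights gave 17 and 1, where 1527 and 2124 of all 14611 tested genes were called. The 4 libraries gave 19 and 1, where 10.3% and 13.3% of all tested genes were. The replicate block gave 0 lower, and an adjusted p under 0.05 gave 0 lower. Leaving out 1 library gave 4 to 11 lower and 0 to 1 higher, and over all tested genes 196 to 1099 and 166 to 1228. DESeq2 without VHL-KO replicate 4 gave 1 higher, where 1416 of all tested genes were. The 1 gene called higher was Ahr each time.

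Directions turned as follows, in log2 fold change. Leaving out 1 library at a time, Gsta2 ranged from -0.83 to 0.013, Gstm2 from -0.76 to 1.21, Gstt1 from -1.56 to 0.21 and Mgst3 from -1.50 to 0.17, each above 0 without VHL-KO replicate 4 only. Sult1d1 ranged from -0.31 to 0.66, below 0 without VHL-KO replicate 4 (-0.24) or VHL-KO;SETD2-KO replicate 3. Mgst1 ranged from -0.22 to 0.78 and Ugt2b34 from -0.044 to 2.08, each below 0 without VHL-KO;SETD2-KO replicate 3, and Sult1c2 from -0.45 to 0.14, above 0 without VHL-KO replicate 1. Gstm6 ranged from -1.44 to 0.68 and Gstm7 from -1.24 to 0.067, above 0 without VHL-KO replicate 4, Gsto1 from -0.81 to 0.85, Ugt1a6a from -0.81 to 0.80, Ugt2a3 from -0.73 to 0.51 and Sult1b1 from -0.20 to 0.46. DESeq2 without VHL-KO replicate 4 gave Gstm6 0.70, Gstm7 0.064, Gsto1 0.84, Sult1b1 -0.21, Gsta2 0.0092, Gstm2 1.21, Gstt1 0.20, Mgst3 0.17 and Sult1d1 -0.25. With the 4 libraries, Gstm6 was at 0.030, Gsto1 at 0.052, Sult1b1 at -0.45, Ugt1a6a at -0.90, Gstm2 was at 0.99, Mgst1 at -0.15, Sult1d1 at -0.81 and Ugt2b34 at -0.55. Quality weights put Gstm6 at 0.19, Gsto1 at 0.19, Sult1b1 at -0.41, Ugt1a6a at -0.74, Gstm2 at 1.06, Mgst1 at -0.015, Sult1d1 at -0.67 and Ugt2b34 at -0.31, plain limma-voom put Gstm2 at 0.34, Gsto1 at 0.019 and Ugt1a6a at -0.027, and the replicate block put Ugt1a6a at -0.90, Ugt2a3 at 0.59, Mgst1 at -0.21 and Sult1c2 at 0.14. Gsto1, at -0.024 with all libraries, was also above 0 with no filter on low counts (0.053), with at least 10 counts in every library (0.033) and with library sizes without mitochondrial genes (0.053). The cause was not tested. The median over all tested genes was 0.13 with limma-voom and 0.11 with the block.

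Same-numbered libraries deviated from their group means with correlations of 0.16 (replicate 2) and -0.32 (replicate 4). Each group mean holds 1 library that stands apart, so these values cannot tell whether mice were paired. RLE normalization turned no direction among the 32 tested genes, and library sizes without mitochondrial genes turned Gsto1 alone. DESeq2 on all 6 libraries called 10 of the 32 tested genes lower and 1 higher at an unadjusted p under 0.05 and 1.5-fold. Of all 14611 tested genes it called 1133 lower and 418 higher. At an adjusted p under 0.05 it called 0 of the 32, and 22 of them had no adjusted p. With 3 mice per label, 2 libraries that stand apart and counts under 25 per library in Ugt1a6b, these data limit what can be said of single genes.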
